A study of Mus musculus with 24 samples.

Results

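The open chromatin around the genes that encode the subunits of the transcription factor AP1 was followed in mouse epidermal stem cells (EpdSCs) while SOX9 was induced, and in cultured keratinocytes with and without a protein that blocks AP1. The 9 genes were Fos, Fosb, Fosl1, Fosl2, Jun, Junb, Jund, Atf3 and Batf, out of 21853 protein-coding genes of the GENCODE annotation of GRCm38. Every peak that overlapped the body of one of these genes, or the 50 kb to either side of it, was taken as a member of that gene's window. This gave 1332 peaks out of 708357 in 12 peak lists. Where peaks overlapped by at least 1 bp they were joined into regions, 159 in skin out of 98240 and 150 in culture out of 97078. The rule for peaks used position alone, and the genes were listed with earlier results of these data known.

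AP1 is a pair of basic leucine zipper proteins, usually a member of the FOS family with a member of the JUN family, that binds the palindrome TGACTCA. ATF3 and BATF belong to the same superfamily and pair with JUN proteins. AP1 is known in epidermis for its part in keratinocyte differentiation, in the response to wounding and stress, and in keeping enhancers open. Several of its genes, Fos, Jun and Atf3 among them, are known as immediate early genes that growth factors or stress switch on within minutes, and AP1 proteins are known to act on the promoters of their own genes.

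ATAC-seq, in which the transposase Tn5 cuts accessible DNA, was carried out on 24 samples in 12 groups of 2 biological replicates, all from male mice of the CD1 strain. The 5 skin groups carried the genotype K14rtTA; TRE-myc-Sox9, in which the Krt14 promoter drives the doxycycline (DOX) dependent activator in skin epithelium. They were D0 (postnatal day 21, before DOX), W1 (day 28), W2 (day 35), W6 (day 63) and W12. EpdSCs were sorted as CD49f-high, Ly6A-high, CD34-negative cells without CD31, CD45, CD117 or CD140a, with animals pooled within a replicate. For W12, epidermis of newborn back skin had been engrafted on Nude females, so week and tissue source cannot be told apart there. The 7 culture groups were newborn keratinocytes that all carried K14rtTA. The group without DOX (noDOX) had the genotype K14rtTA; TRE-myc-Sox9. The other 6 received DOX at 1 µg per ml, for 3 days where the descriptions give a time. WT-SOX9 carried TRE-myc-Sox9, ΔHMG-SOX9 the form without the DNA-binding domain (TRE-myc-Sox9noHMG) and ΔTA-SOX9 the form without the transactivation domain (TRE-myc-Sox9noTA). AFOS carried TRE-FLAG-AFOS, a dominant negative FOS that pairs with JUN proteins and keeps them off DNA. SOX9+AFOS carried TRE-myc-Sox9 with TRE-FLAG-AFOS, and SOX9+ARID1a carried TRE-myc-Sox9 with TRE-ARID1a, a subunit of the SWI/SNF remodeller. The study's methods state that the SOX9 forms were introduced by lentivirus into K14rtTA cells, with selection. AFOS and ARID1a were introduced by lentivirus into K14rtTA cells or into cells that already carried TRE-myc-Sox9. SOX9 in SOX9+AFOS and SOX9+ARID1a may thus differ in source from that in WT-SOX9. Against WT-SOX9, such a difference and that of AFOS cannot be told apart. No uninduced list of the AFOS or ARID1a cells was used here.

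The replicates of a group were merged before peak calling, so that each group was 1 list and no test, no SD and no interval across animals or cultures could be had for any value given here. A peak is described by its score, which appears, from the totals, to be scaled to a common sum per list. The lowest score kept was 3, and read depth is unknown. The lists held 49458 to 75956 peaks. A score of 3 did not mean equal evidence in the skin lists, whose lowest -log10 q-values ran from 4.21 (W2) and 5.74 (W6) to 9.37 (W1), 10.1 (W12) and 14.5 (D0). In culture, peak names mention fragments in the list of SOX9+ARID1a and in both lists with AFOS but not in the other 9, and the widest peaks of these 3 spanned 2227 to 3583 bp against 9245 to 10772 bp in the other culture lists. A difference in peak calling and a difference between these arms cannot be told apart, and SOX9+ARID1a served as the comparison with the same form of names. Promoters of the epidermal genes Krt5, Krt14, Itga6 and Col17a1 had a peak in all 12 lists, whereas those of Itgb4 and Trp63 had none at the start used. None of the 11 immune, endothelial, fibroblast and melanocyte markers had a promoter peak in any list. Of the hair follicle stem cell markers, Cd34 had one only at W6 (score 5.90) and W12 (3.03). Lhx2 and Nfatc1 had one in 8 lists each, among them all 5 skin lists. Lhx2 scored 21.1 at D0, 13.3 at W2 and 15.3 at W12, and Nfatc1 scored 11.7, 5.63 and 9.40, so both were lower after D0 at these weeks.

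Most of the AP1 subunit windows were rich in open chromatin. The 9 windows, 102 to 148 kb long, held 116 peaks before induction (D0), then 119 (W1), 122 (W2), 135 (W6) and 123 (W12). In culture they held 96 peaks in noDOX, 83 in WT-SOX9, 112 in ΔHMG-SOX9, 101 in ΔTA-SOX9, 104 in AFOS, 112 in SOX9+AFOS and 109 in SOX9+ARID1a. The median member window held 10 to 15 peaks depending on the list, against 5 or 6 for the windows of all protein-coding genes. The Batf window was the poorest, with 3 to 10 peaks in skin, and the Fosb window held the most at W1, with 22. Only the Fos, Fosl2 and Jun windows contained no other protein-coding gene, while that of Fosl1 contained 11, Junb 9, Fosb 7, Jund 5, Batf 2 and Atf3 1. A member was the gene with the nearest coding start for 81 of the 159 skin regions, and assignment to a window does not show that a region acts on the member.

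**Figure D1:**
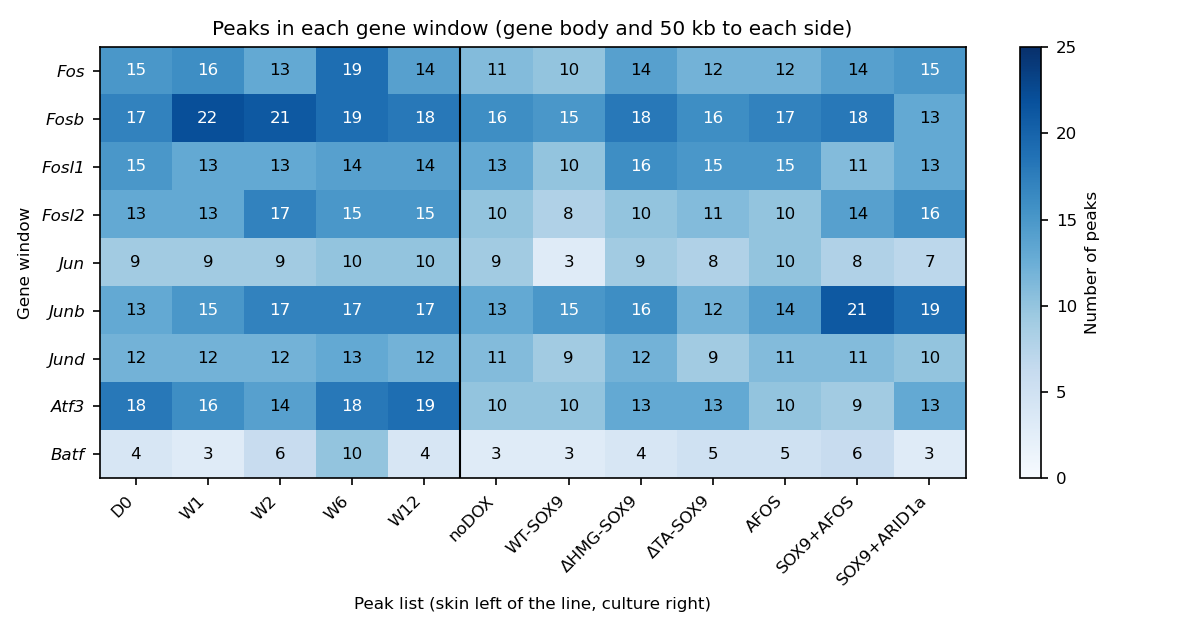
Number of peaks in each gene window (rows) in each peak list (columns), with the colour scale running from 0 to 25 peaks and skin to the left of the line. The Jun window drops to 3 peaks in WT-SOX9, and the Batf window is the poorest in most lists.

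Promoters, taken as 250 bp to either side of the start of the transcript with the longest coding sequence, were open at 7 of the 9 genes in all 12 lists. A promoter peak in every list was found at 40.2% of all protein-coding genes. Fosb had a promoter peak in 10 lists, and Batf had none in any list, as did 40.5% of all genes. Fos, the classical immediate early member of the family, lies on the plus strand at chr12:85473890-85477273. Its promoter scored 19.7 at D0, 26.0 at W1, 18.3 at W2, then 14.7 at W6 and 20.02 at W12. Each list had 1 peak in the Fos gene body, at the promoter, and no peak over exons 2 to 4. Such exon peaks can arise from a delivered coding sequence, and none was found with AFOS or without it.

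The other FOS family promoters differed in how far they ranged in skin. Fosl1, which encodes FRA1 (chr19:5447547-5455946, plus strand), scored 27.4, 35.3, 21.2, 33.0 and 36.3 from D0 to W12, and Fosl2, which encodes FRA2 (chr5:32135801-32157842, plus strand), scored 32.4, 37.2, 30.5, 27.6 and 34.9. The highest value was 1.71 times the lowest for Fosl1 and 1.35 times for Fosl2, the narrowest range of the 8 genes with promoter peaks. Fosb, the remaining FOS protein (chr7:19302696-19310051, minus strand), scored 7.04 at D0, 9.72 at W1 and 3.72 at W12, with no peak in the promoter at W2 and W6. At those weeks a peak of 5.41 and 3.64 was present just outside the promoter, ending 258 and 282 bp upstream of the start, so a peak remained beside the start.

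In the JUN family, whose members are the obligate partners of FOS proteins and can also pair with each other, the Jun promoter was highest at W2. Jun (chr4:95049034-95052222, minus strand) scored 24.3 at D0, 33.0 at W1, 40.5 at W2, then 30.4 at W6 and 26.7 at W12. Junb (chr8:84974484-84978718, minus strand), known as a weaker activator than JUN in epidermis, scored 14.04, 23.1, 16.3, 13.5 and 14.6. Jund (chr8:70698949-70700616, plus strand), the most constitutively expressed of the family, scored 13.8, 30.9, 15.99, 15.9 and 19.7. Junb and Jund thus peaked at W1, and Jund was 2.24-fold above D0 there. All 8 members with a promoter peak in both lists were higher at W1 than at D0, with a median log2 ratio of 0.45, beside 0.32 over 11185 genes, so that promoters in general were also higher at W1.

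Atf3, which encodes a stress-induced partner of JUN proteins (chr1:191170296-191218039, minus strand, main start at 191183340), had the largest promoter ratio of W2 over D0 among the 7 members with a promoter peak in both lists. It scored 9.11 at D0, 16.7 at W1, 22.9 at W2, then 17.6 at W6 and 16.9 at W12, with D0 the lowest value and W2 the highest. The ratio of W2 over D0 was 2.52, at the 99.2 percentile of all genes with a promoter peak in both lists. Jun followed with 1.66-fold, at the 95.5 percentile. Atf3 was the only one of 7 members at least 2-fold higher at W2 than at D0, and none was at least 2-fold lower, against 1.97% and 2.54% of 11083 genes. At W6 none of the 7 had moved by 2-fold in either direction (3.03% of 11234 genes higher and 3.37% lower), with Atf3 at 1.93-fold. Fosb, with a promoter peak at D0 and none at W2 and W6, is not in these counts. The median log2 ratio of the members was 0.21 at W2 and 0.20 at W6, beside -0.10 and -0.16 over all genes. The median at W2 depended on the promoter setting. It was -0.10 with 1 kb to either side, where 8 members counted instead of 7, and that at W6 was then 0.06. With the width kept and absent promoters set to 3, which also gave 8 members, the median at W2 was 0.06. Batf (chr12:85686669-85709087, plus strand), known mainly from lymphocytes, had no promoter peak, and the only region inside the gene present in all 5 skin lists lay at +19 kb, scoring 16.6 at D0, 7.23 at W1, 19.4 at W2, then 25.9 at W6 and 11.2 at W12.

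The 250 bases before the RefSeq starts of Atf3 and Jun are printed below because these members had the largest promoter ratios of W2 over D0, in 5′ to 3′ direction on the gene's strand (build GRCm38.p6). An entry was found for 8 of the 9 members, with none for Fosl1. The sequences were searched on both strands for AP1 (TGACTCA), the cyclic AMP response element (TGACGTCA), SOX (ACAATGG and ACAATAG) and the serum response element (CArG box). None of the 8 stretches of 250 bases held a match to any of these, which occur in 4.46%, 1.55%, 5.03% and 1.47% of 32851 RefSeq promoters. This does not describe the open promoter regions as a whole, which are wider, and the RefSeq starts of Jund and Fosl2 differ from those used for the scores. Over their whole length, the promoter regions in skin held a match to AP1 at Fosl1 and Fosl2, to the cyclic AMP response element at Jund, to SOX at Fosl2 and to the CArG box at Fos and Fosb, and to none of these at Atf3, Jun and Junb. Capitals mark 2 related 8-base sequences that were picked out after the promoters had been read. TGACATCA, known from the Jun promoter as an AP1-like element, begins 45 bases before the start of Jun and occurs in 2.93% of promoters. TTACGTCA begins 10 bases before the start of Atf3 and occurs in 0.447% of promoters. A match describes the letters and does not show that a factor is bound.
Atf3 (chr1:191183334-191183583, minus strand): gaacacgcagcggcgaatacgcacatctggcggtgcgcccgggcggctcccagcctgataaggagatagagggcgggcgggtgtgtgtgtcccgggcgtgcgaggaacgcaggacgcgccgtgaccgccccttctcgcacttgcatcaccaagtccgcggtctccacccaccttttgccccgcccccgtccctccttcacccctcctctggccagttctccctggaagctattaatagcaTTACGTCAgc
Jun (chr4:95052223-95052472, minus strand): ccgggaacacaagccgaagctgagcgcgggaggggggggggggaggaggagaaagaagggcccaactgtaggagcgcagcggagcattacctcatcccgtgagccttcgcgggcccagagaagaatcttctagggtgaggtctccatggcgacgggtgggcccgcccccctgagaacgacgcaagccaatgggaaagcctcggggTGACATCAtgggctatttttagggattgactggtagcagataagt

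**Figure D2:**
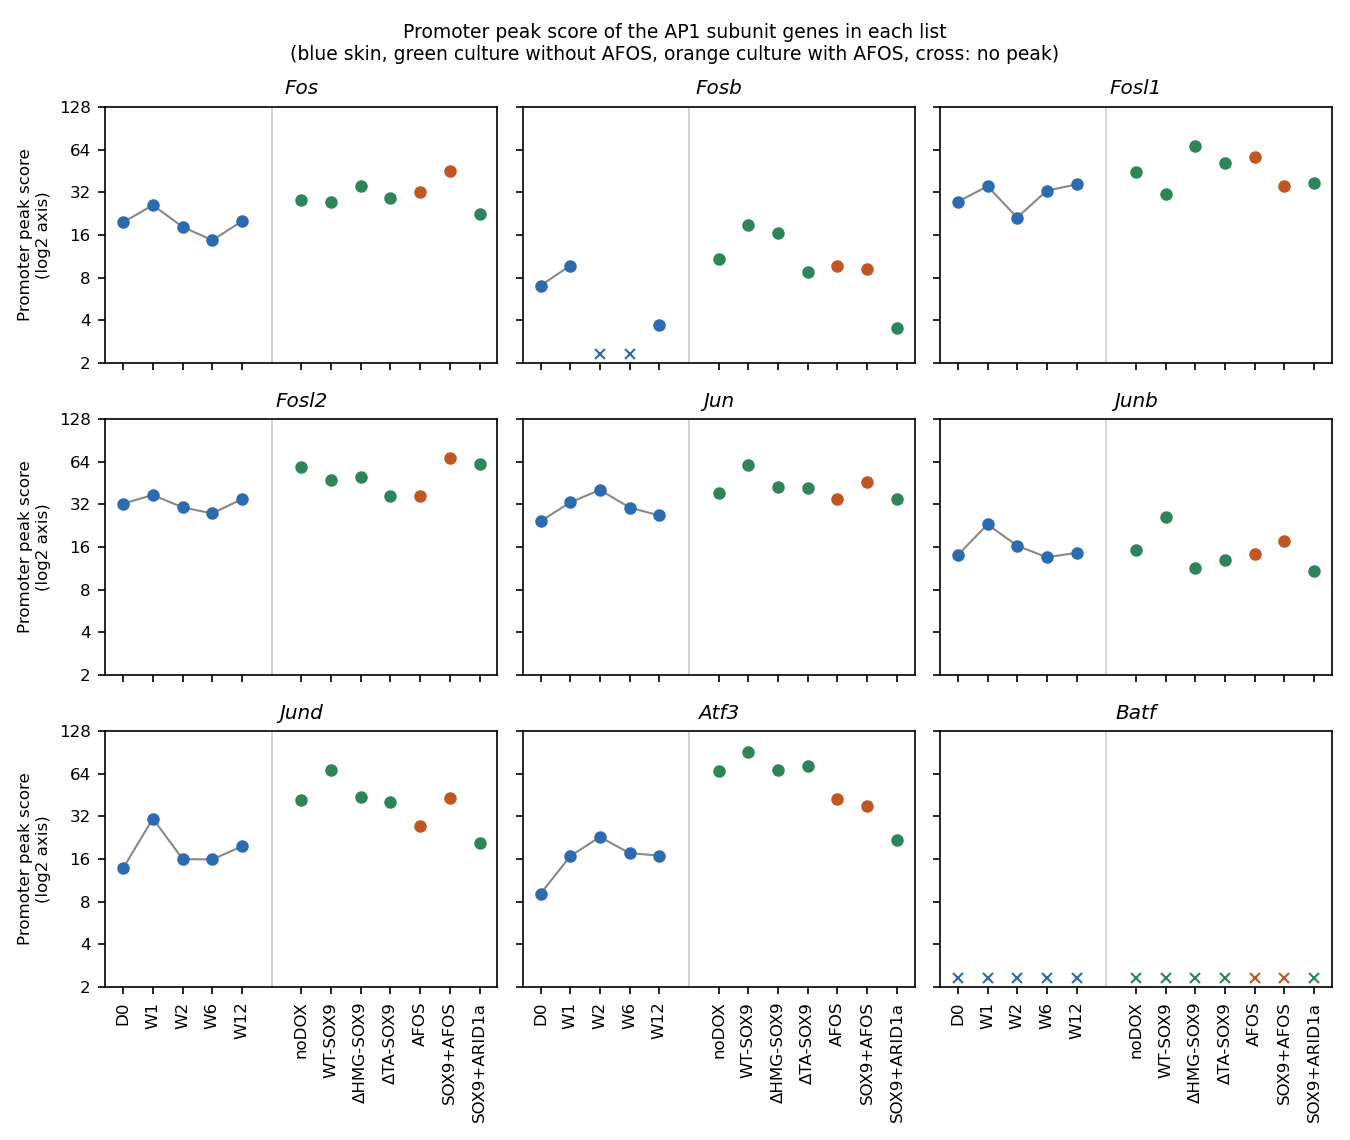
Score of the promoter peak (log2 axis) of each AP1 subunit gene in each list, with skin in blue, culture without AFOS in green and culture with AFOS in orange. A cross marks a list without a promoter peak. Atf3 rises from 9.11 at D0 to 22.9 at W2. In culture it is lower in both AFOS lists than in noDOX and WT-SOX9, and lowest in SOX9+ARID1a (21.9), which has no AFOS. Batf has crosses throughout.

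The regions in skin were classed by the lists in which they were present. Of the 159 regions, 84 (52.8%, 95% Wilson interval 45.1 to 60.4) were static, that is present in all 5 skin lists, beside 39.8% of the 82762 regions in the windows of all protein-coding genes. The intervals cover counting error only and treat neighbouring regions as independent, and the static share was 50.6% where the member had the nearest start and 48.5% when all lists were held to a -log10 q-value of at least 14.5. The part that the high peak number of these windows has in the share was not tested. At promoters the share was near that of all genes (25 of 31, 80.6%, beside 82.2%), and among the other regions it was 59 of 128 (46.1%) beside 31.2%. Fosl1 and Junb each kept 12 regions static out of 16 and 19, while Batf kept 3 of 11.

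The static regions away from promoters with the highest scores at D0 lay beside Atf3 and Jun. Distances are given along the gene's strand from its start, with minus for upstream. The Atf3 region at -10.4 kb, in an intron of Atf3 (chr1:191193114-191194341), scored 59.1, 55.2, 41.4, 33.0 and 59.4 from D0 to W12. The Atf3 region at -33 kb (chr1:191215890-191216849) scored 37.8, 56.7, 38.1, 31.1 and 28.5. The intergenic Jun region at -24 kb (chr4:95075328-95077024) scored 53.1, 49.5, 52.3, 32.4 and 38.0. All of these were lower at W6 than at D0, by less than 2-fold. A static Fosl2 region at +47.5 kb, with 33.3 at D0, scored higher than these 3 at W2 (58.0) and W6 (39.8). A lower-scoring static Jun region at -16.3 kb, named after its values were seen, scored 7.05 at D0, 7.74 at W1, 33.0 at W2, then 11.2 at W6 and 10.8 at W12, and so stood out at W2 alone, the list in which the Jun promoter was also highest.

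Losses by W2 that were not regained were near the share of all windows, while gains by W2 that were kept were below it. Both shares moved with the settings, as given below. Of 110 regions present at D0, 8 (7.27%, interval 3.73 to 13.7) were lost by W2 and not regained, beside 9.08% in the windows of all genes. The highest-scoring of them at D0 were at Atf3 +17 kb (8.59), Fosl2 +10.6 kb in an intron (5.98) and Jund -3.4 kb (5.90, with 6.12 at W1). The remaining 5 scored lower at D0, and none of the 8 was a promoter. Of 113 regions present at W2, 5 (4.42%, interval 1.90 to 9.94) were gained by W2 and kept, beside 11.9% of regions in all windows, and 3 of these 5 lay in the Junb window. The strongest gain was the intergenic Batf region at -19.8 kb (chr12:85666350-85667411), absent at D0 and W1 and scoring 7.95 at W2, 21.9 at W6 and 13.03 at W12. Next came Fosl2 at +60.3 kb (5.60, 5.03 and 5.70 from W2 to W12) and Junb at +34 kb (5.36, 7.65 and 4.63).

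Gains after W2 that were kept at W12 numbered 6 of the 132 regions present at W6 (4.55%, interval 2.10 to 9.56), beside 8.63% in all windows. They were led by the intergenic Fos region at +45.9 kb (chr12:85519554-85519957), absent until W2 and scoring 10.7 at W6 and 13.4 at W12. Fos at +39.8 kb scored 7.86 and 3.996 and Fosl2 at -43.7 kb 7.65 and 3.01. Between successive lists, gains are given as a share of the later list and losses as a share of the earlier one. From D0 to W1, 18 regions were gained (15.3%, beside 15.3% in all windows) and 10 were lost (9.09%, beside 12.2%). From W1 to W2, 14 were gained (12.4%, beside 27.2%) and 19 lost (16.1%, beside 24.2%). From W2 to W6, 27 were gained (20.5%, beside 25.3%) and 8 lost (7.08%, beside 10.5%). From W6 to W12, 3 were gained (2.65%, beside 14.2%) and 22 lost (16.7%, beside 17.9%). The gains from W1 to W2 and from W6 to W12 were the steps at which the windows of the AP1 subunits were furthest below all windows. W6 had 11 regions seen in no other skin list (8.33%, beside 10%), 4 of them in the Batf window. The share of gains by W2 in the AP1 subunit windows moved with the settings, to 1.61% within 20 kb of the genes, 1.75% where the member had the nearest start and 0% when all lists were held to a -log10 q-value of at least 14.5, where losses by W2 came to 17.3%. The shares in all windows were not computed under these settings. The share gained after W2 was 1.49% within 20 kb.

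**Figure D3:**
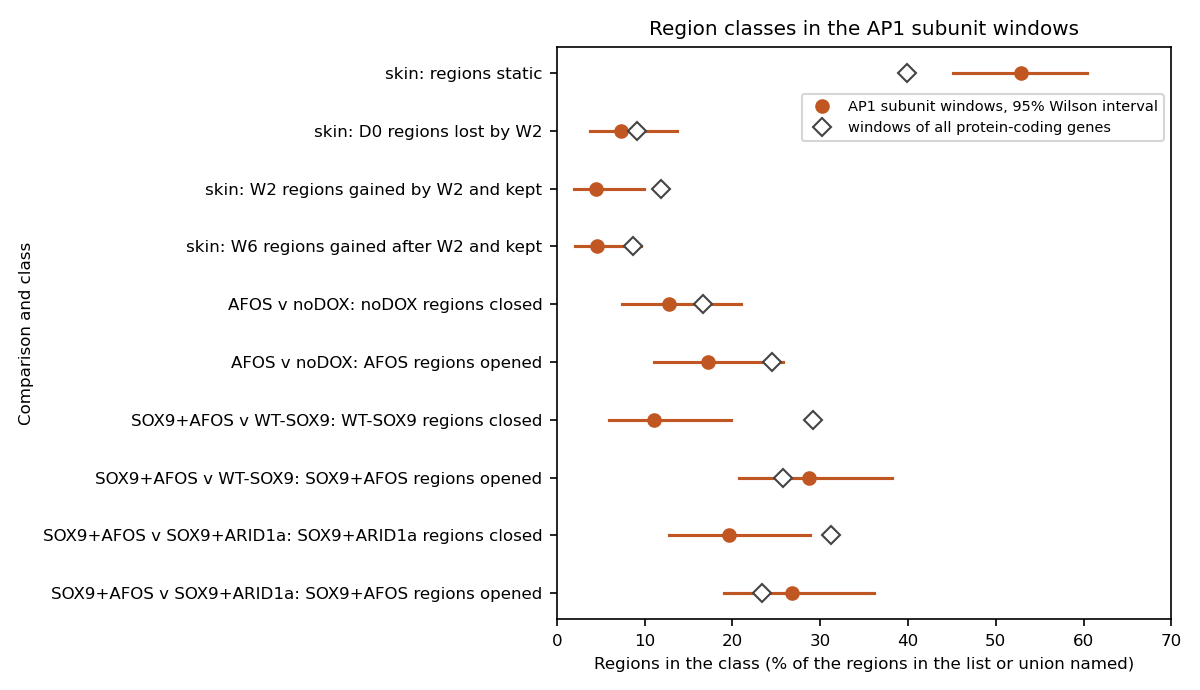
Percent of regions in each class in the AP1 subunit windows (orange points, bars for the 95% Wilson interval from counting alone) and in the windows of all protein-coding genes (open diamonds). The static share in skin lies above the diamond, at 52.8% against 39.8%, and the share of WT-SOX9 regions closed with SOX9+AFOS lies below it, at 11.1% against 29.2%.

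In culture, the Jun window held its fewest peaks in WT-SOX9, the list in which the Jun promoter scored highest. The Jun window held 9 peaks in noDOX, 3 in WT-SOX9, 9 in ΔHMG-SOX9, 8 in ΔTA-SOX9, 10 in AFOS, 8 in SOX9+AFOS and 7 in SOX9+ARID1a. WT-SOX9 was therefore the lowest, and 6 of the 9 noDOX regions were absent from it with none gained. Among 11374 coding windows with at least 5 noDOX peaks, 72 (0.633%) had a ratio of WT-SOX9 to noDOX as low as the 0.333 of Jun. This ratio was picked out from those of the members after the counts were seen. The 2 distal regions that remained in WT-SOX9 were at -32.1 kb, with 6.05 against 7.29 in noDOX, and at +26.1 kb, with 3.21 against 14.5. Lost were the regions at -29.6 kb (9.49 in noDOX), +50.7 kb (7.64), -23.5 kb (5.69), +43.8 kb (5.62), -16.3 kb (4.55) and -24.3 kb (3.95). The Jun promoter scored 38.6 in noDOX and 60.3 in WT-SOX9, its highest value in culture, against 42.5 in ΔHMG-SOX9, 41.4 in ΔTA-SOX9, 34.8 in AFOS, 45.7 in SOX9+AFOS and 34.7 in SOX9+ARID1a. Of the 8 distal noDOX regions, 2 were present in WT-SOX9, 6 each in ΔHMG-SOX9 and AFOS, and 4 each in ΔTA-SOX9, SOX9+AFOS and SOX9+ARID1a.

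**Figure D4:**
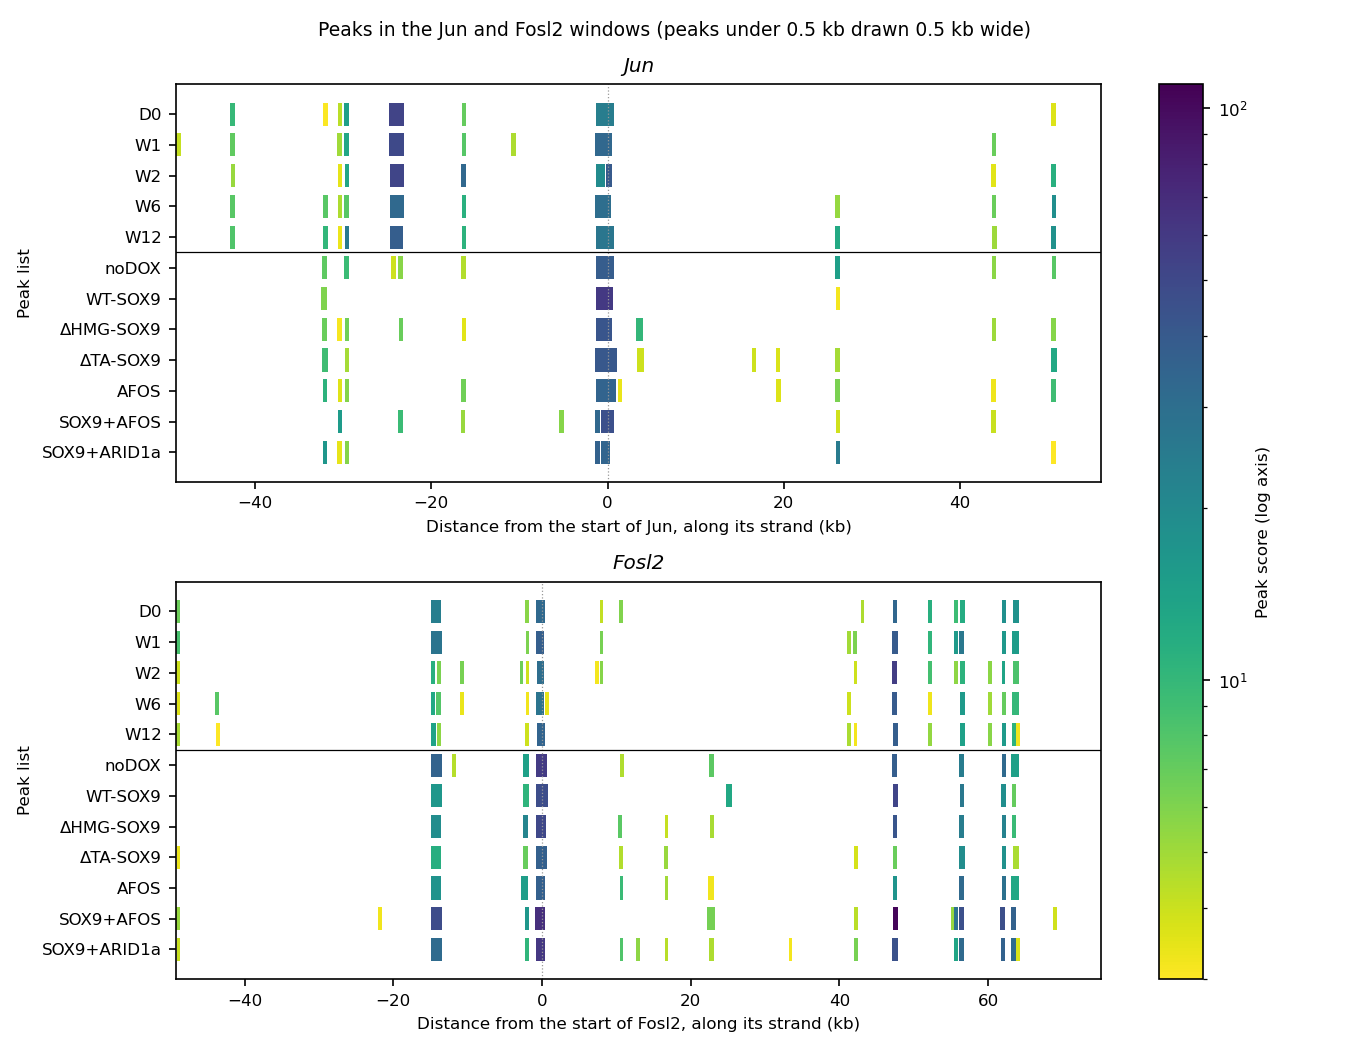
Peaks in the Jun and Fosl2 windows in each list, placed by distance from the gene's start along its strand in kb and coloured by score (log axis), with skin above the line and culture below. The Jun row of WT-SOX9 holds the promoter and 2 distal peaks, and the Fosl2 row of SOX9+AFOS holds 14 peaks with the darkest at +47.5 kb (104).

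The FOS family promoters did not move together across the culture arms. Fos scored 28.2 in noDOX, 27.4 in WT-SOX9, 35.2 in ΔHMG-SOX9, 29.0 in ΔTA-SOX9, 32.1 in AFOS, 45.5 in SOX9+AFOS and 22.5 in SOX9+ARID1a, so that it was highest where SOX9 and AFOS were combined. Fosl2 scored 58.6, 47.5, 50.2, 36.8, 36.9, 67.8 and 61.4 in the same order and was likewise highest in SOX9+AFOS. Fosl1 scored 44.7, 31.4, 68.0, 51.6, 56.7, 35.2 and 37.2, with its 3 lowest values in the 3 lists with full-length SOX9. Fosb scored 10.8, 18.7, 16.4, 8.76, 9.63, 9.17 and 3.54 and was lowest in SOX9+ARID1a.

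The Junb, Jund and Atf3 promoters, like those of Jun and Fosb, were highest in WT-SOX9. Junb scored 15.3 in noDOX, 26.1 in WT-SOX9, 11.4 in ΔHMG-SOX9, 12.99 in ΔTA-SOX9, 14.2 in AFOS, 17.5 in SOX9+AFOS and 10.9 in SOX9+ARID1a. Jund scored 41.6, 68.3, 43.6, 40.6, 27.4, 43.1 and 20.6, and Atf3 67.3, 90.8, 67.6, 72.6, 42.7, 38.0 and 21.9. For these and for Jun the ΔHMG-SOX9 and ΔTA-SOX9 values were closer to noDOX than to WT-SOX9. The ΔHMG-SOX9 value of Fosb was instead closer to WT-SOX9 than to noDOX. The median log2 ratio of WT-SOX9 over noDOX was 0.54 over the 8 members and 0.24 over all genes. Atf3 was lower in SOX9+ARID1a and in both AFOS lists than in the other 4, and these are the 3 lists whose peak names mention fragments.

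With AFOS against noDOX, no member promoter changed by 2-fold, whereas 2.17% of 10144 genes were at least 2-fold higher and 15.7% at least 2-fold lower. The median log2 ratio of the 8 members was -0.16 beside -0.37 over all genes, and 6 of the 8 were lower. The median of the members was -0.39 with 1 kb to either side. With SOX9+AFOS against WT-SOX9, 2 members were at least 2-fold lower, Atf3 at 0.418-fold and Fosb at 0.490-fold, and none was higher by that much, against 11.1% and 3.58% of 10134 genes. The median was -0.49 beside -0.21, with Fos (1.66-fold), Fosl2 (1.43-fold) and Fosl1 (1.12-fold) above 1 and the JUN family and Atf3 below. This median was -0.12 with promoters of 1 kb to either side. Against SOX9+ARID1a the picture differed, with 7 of 8 members higher in SOX9+AFOS and a median of 0.74 beside 0.85, so neither Atf3 (1.73-fold) nor Fosb (2.59-fold) was lower with AFOS in that comparison. Both comparisons share the SOX9+AFOS list.

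In every AFOS comparison most regions of the AP1 subunit windows were kept. With AFOS alone, 12 of 94 noDOX regions closed (12.8%, interval 7.46 to 21), beside 16.7% in all windows, and 17 of 99 AFOS regions opened (17.2%, interval 11.01 to 25.8), beside 24.5%. With SOX9+AFOS, 9 of 81 WT-SOX9 regions closed (11.1%, interval 5.96 to 19.8), beside 29.2%, and 29 of 101 opened (28.7%, interval 20.8 to 38.2), beside 25.8%. Against SOX9+ARID1a, 18 of 92 closed (19.6%, interval 12.7 to 28.8), beside 31.2%, and 27 of 101 opened (26.7%, interval 19.1 to 36.1), beside 23.4%. The shares of opened regions with SOX9 were near those of all windows, and both came to 18.9% within 20 kb of the genes. Outside promoters, 8 of 52 WT-SOX9 regions closed (15.4%) beside 36.6%. No region was present in noDOX and WT-SOX9 and absent from both AFOS lists (0 of 70, beside 3.36%), and 2 of 77 had the opposite pattern (2.60%, beside 4.68%). Of 64 regions present in noDOX, AFOS, WT-SOX9 and SOX9+AFOS, 13 moved in opposite directions with AFOS alone and with SOX9+AFOS by at least 1.25-fold each (20.3%, beside 19.1% in all windows), so the share was near that of all windows.

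By gene, Atf3 lost 3 of 10 WT-SOX9 regions with SOX9+AFOS, Fosl1 lost 2 of 10, and Fos, Fosl2, Jun and Junb lost 1 each, while Fosb, Jund and Batf lost none. Away from promoters, the highest-scoring closed regions were Fosl2 at +25.1 kb (12.7 in WT-SOX9, with no peak in any other culture list), Fosl1 at -2.5 kb (11.4) and Atf3 at -62.5 kb (6.31). The Fosl1 region scored 21.3 in noDOX, 31.9 in ΔHMG-SOX9, 19.8 in ΔTA-SOX9, 28.2 in AFOS and 7.29 in SOX9+ARID1a, so only the SOX9+AFOS list was without it. By count, openings were most numerous at Fosl2 (7), where the peaks rose from 8 in WT-SOX9 to 14 in SOX9+AFOS. At Jun, with only 3 regions in WT-SOX9, 5 opened. The highest-scoring openings away from promoters were Fosl2 at +55.7 kb (28.1, with 13.2 in SOX9+ARID1a and no peak elsewhere in culture), Fos at +16.4 kb (19.0, in no other culture list) and Fos at -23.9 kb (15.8). The last was absent from WT-SOX9 alone, with 3.79 in noDOX, 8.34 in ΔHMG-SOX9, 22.2 in ΔTA-SOX9, 16.2 in AFOS and 21.7 in SOX9+ARID1a.

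With AFOS alone, the highest-scoring closed regions away from promoters were Junb at +2.4 kb (13.5 in noDOX), Jund at +1.9 kb (10.1) and Batf at +17 kb (8.42). The Junb region was present in all culture lists but AFOS, with 13.9 in WT-SOX9, 6.21 in ΔHMG-SOX9, 12.6 in ΔTA-SOX9, 14.3 in SOX9+AFOS and 16.2 in SOX9+ARID1a. The highest-scoring opened regions of the same kind were Atf3 at +57.1 kb (13.02), Fos at -37.5 kb (12.4) and Jund at +28.1 kb in an intron of Pde4c (11.7). Against SOX9+ARID1a, the leading closed regions away from promoters were Jun at -32.1 kb (16.5), Atf3 at -38.9 kb (13.7) and Fosl2 at +10.6 kb (8.14), and the leading opened ones, likewise away from promoters, were Fos at +16.4 kb (19.0), Jun at -23.5 kb (9.42) and Junb at +18.6 kb (8.76).

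Regions with an AP1 sequence in their centre had a lower median score ratio than those without one in both SOX9+AFOS comparisons, and not with AFOS alone. A match to TGACTCA on either strand in the central 200 bp was found in 25 of 150 culture regions (16.7%, beside 19.7% in all windows) and 26 of 159 skin regions (16.4%, beside 18.6%). With SOX9+AFOS against WT-SOX9, 2 of 8 regions with a match closed (25%, beside 44.2%) and 7 of 73 without one (9.59%, beside 26.4%). Among regions present in both lists, the median log2 score ratio was -1.15 for the 6 with a match and 0.24 for the 66 without, beside -0.31 and 0.03 over all windows. Against SOX9+ARID1a, 8 of 14 regions with a match closed (57.1%, beside 54.8%) and 10 of 78 without one (12.8%, beside 25.3%), with medians of -1.60 and 0.60 beside -0.78 and 0.53. None of the 29 and 27 regions opened in these comparisons held a match in the central 200 bp, beside 6.12% and 2.79%. At such low shares, finding none among so few regions is near the share of all windows. Some held a match outside the centre, such as Junb at -6.5 kb against WT-SOX9 and Fosb at -17.2 kb against SOX9+ARID1a. With AFOS alone, 3 of 15 with a match closed (20%, beside 15.0%) and 9 of 79 without one (11.4%, beside 17.1%), while the medians of kept regions were 0.30 with a match and -0.11 without, beside 0.05 and -0.15. The lower ratios with a match in the SOX9+AFOS comparisons were shared with all windows. With AFOS alone the closed share of the members was higher with a match and that of all windows lower, on few member regions.

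**Figure D5:**
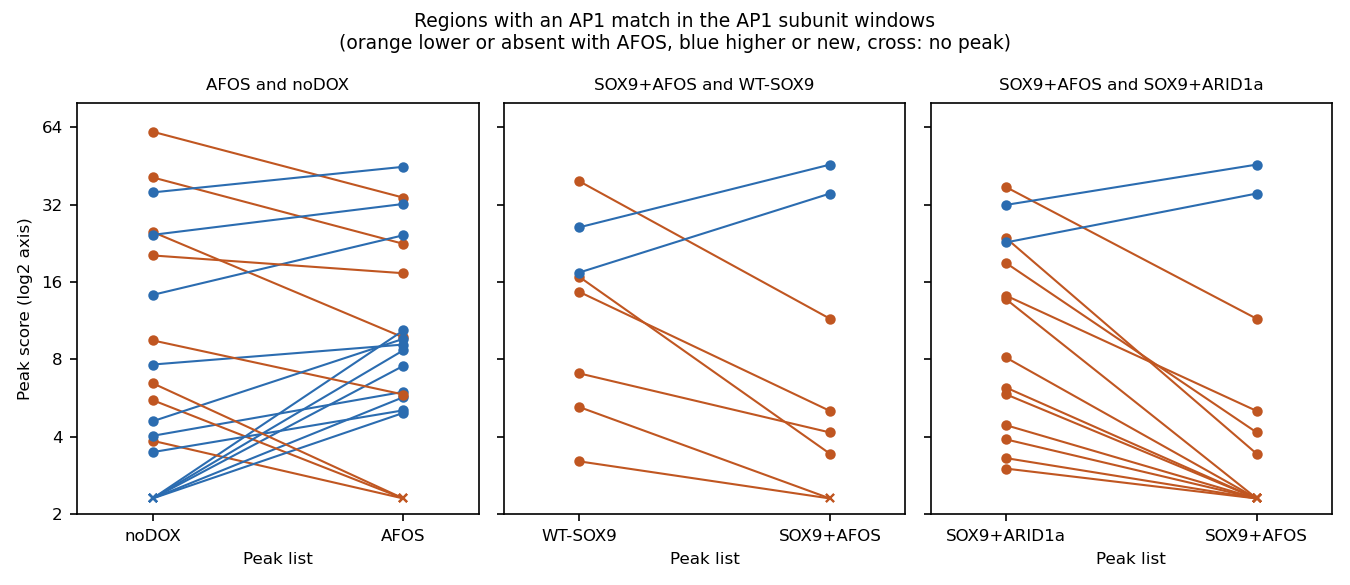
Score (log2 axis) of each region with an AP1 match in the AP1 subunit windows in the list without AFOS and the list with it, in 3 comparisons. Orange lines fall or end in a cross (no peak), and blue lines rise or start from one. With SOX9, 2 of the regions rise and the rest fall or are lost, while with AFOS alone lines go both ways.

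Among the regions with a match, 3 beside Atf3, 1 beside Fosl1 and 1 beside Fos were lower or absent in SOX9+AFOS, while a Fosl2 and a Junb region were higher. The Atf3 region at -10.5 kb scored 61.6 in noDOX, 39.5 in WT-SOX9, 39.9 in ΔHMG-SOX9, 38.8 in ΔTA-SOX9, 34.1 in AFOS, 11.5 in SOX9+AFOS and 37.5 in SOX9+ARID1a. The Atf3 region at -33 kb scored 40.9, 14.7, 22.8, 32.5, 22.5, 5.04 and 14.2 in the same order. The Atf3 region at -38.9 kb scored 25.1, 5.22, 20.8, 16.002 and 9.74 in the lists from noDOX to AFOS, had no peak in SOX9+AFOS and scored 13.7 in SOX9+ARID1a. SOX9+AFOS was thus the lowest list at all of them. The Fosl1 region at -17.5 kb scored 35.7 in noDOX, 16.8 in WT-SOX9, 64.8 in ΔHMG-SOX9, 50.1 in ΔTA-SOX9, 45.0 in AFOS, 3.43 in SOX9+AFOS and 23.8 in SOX9+ARID1a. The Fos region at +45.9 kb, which was gained late in skin, scored 14.3, 7.06, 15.0, 12.2, 24.3, 4.16 and 19.0. Both were higher with AFOS alone than in noDOX and lowest in SOX9+AFOS. The Fosl2 region at +56.4 kb scored 24.4, 26.1, 24.1, 19.0, 32.2, 45.9 and 31.9, and the Junb region at -46.8 kb, at the promoter of another gene, scored 20.3, 17.4, 19.4, 15.8, 17.3, 35.4 and 22.8. Both were highest in SOX9+AFOS although they hold a match.

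The stretch around the match in each of these 7 regions is printed below. Of these, 6 are the regions with a match that were kept in both SOX9+AFOS comparisons, whose ratios give the medians above, and Atf3 at -38.9 kb closed in both. Fos at +53.3 kb, which scored 3.21 in WT-SOX9 and 3.91 in SOX9+ARID1a, also closed in both, and its sequence is not shown, nor are those of the other 6 regions with a match that closed against SOX9+ARID1a, which scored 3.01 to 8.14 there. Each runs 5′ to 3′ on the plus strand of GRCm38.p6, with the match to TGACTCA or its reverse complement TGAGTCA in capitals. The Fos region holds 2 matches, in opposite orientations.
Atf3 at -10.5 kb (chr1:191193760-191193846, plus strand): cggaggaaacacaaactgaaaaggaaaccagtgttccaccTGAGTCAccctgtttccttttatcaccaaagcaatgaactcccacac
Atf3 at -33 kb (chr1:191216265-191216351, plus strand): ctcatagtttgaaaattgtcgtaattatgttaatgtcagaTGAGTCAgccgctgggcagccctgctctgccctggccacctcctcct
Atf3 at -38.9 kb (chr1:191222148-191222234, plus strand): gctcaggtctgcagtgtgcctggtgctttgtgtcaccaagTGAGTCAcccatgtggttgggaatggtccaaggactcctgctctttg
Fos at +45.9 kb (chr12:85519685-85519823, plus strand): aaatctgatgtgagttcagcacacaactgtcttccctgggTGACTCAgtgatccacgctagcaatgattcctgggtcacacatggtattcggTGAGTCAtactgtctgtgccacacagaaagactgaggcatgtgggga
Fosl1 at -17.5 kb (chr19:5430010-5430096, plus strand): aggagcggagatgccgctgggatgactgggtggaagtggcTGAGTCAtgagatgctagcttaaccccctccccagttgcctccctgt
Fosl2 at +56.4 kb (chr5:32192194-32192280, plus strand): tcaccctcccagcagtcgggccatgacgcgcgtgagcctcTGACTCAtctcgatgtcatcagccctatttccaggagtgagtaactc
Junb at -46.8 kb (chr8:85025383-85025469, plus strand): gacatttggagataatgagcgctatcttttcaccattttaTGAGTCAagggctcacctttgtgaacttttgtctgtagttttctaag

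The Fosl2 region at +47.5 kb, which holds no AP1 match, reached the highest score of these windows in SOX9+AFOS. It scored 38.1 in noDOX, 52.4 in WT-SOX9, 42.4 in ΔHMG-SOX9, 6.86 in ΔTA-SOX9, 16.9 in AFOS, 104 in SOX9+AFOS and 44.6 in SOX9+ARID1a. In skin it was static and scored 33.3 at D0, 39.9 at W1, 58.0 at W2, then 39.8 at W6 and 38.3 at W12. The lists with full-length SOX9 were above the 4 without it, and ΔTA-SOX9 and AFOS were the lowest. It was picked out after its values were seen. Its centre holds a match to the SOX sequence ACAATGG, printed in capitals as the reverse complement CCATTGT. A SOX match lay in the central 200 bp of 5 of 150 culture regions (3.33%, beside 5.84% in all windows).
Fosl2 at +47.5 kb (chr5:32183286-32183372, plus strand): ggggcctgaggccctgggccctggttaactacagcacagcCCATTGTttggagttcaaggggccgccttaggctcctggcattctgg

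Regions that followed full-length SOX9 across all culture lists were rare here and in all windows, and the counts here were too small to set the shares apart. A peak in the 3 lists with full-length SOX9 and in none of the other 4 was found for 1 of 150 regions (0.667%, beside 2.39% in all windows). It lay in the Batf window at -49.4 kb, inside an intron of Jdp2, which encodes a repressor that pairs with JUN proteins (chr12:85636863-85637690). It scored 41.6 in WT-SOX9, 34.2 in SOX9+AFOS and 15.7 in SOX9+ARID1a. The reverse pattern was found for 2 regions (1.33%, beside 2.01%). The Atf3 region at +50.4 kb (chr1:191132401-191133398) scored 9.81 in noDOX, 21.2 in ΔHMG-SOX9, 50.6 in ΔTA-SOX9 and 33.2 in AFOS. The Fosl1 region at +1.3 kb, in an intron, scored 4.03, 4.86, 6.41 and 5.98. By contrast 56 of the 150 regions (37.3%, beside 27.6%) had a peak in all 7 culture lists.

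A list of 22 other genes of the AP1 pathway, made up of further leucine zipper partners, MAP kinases and the SRF and ELK factors that act on immediate early genes, was counted in the same way. In skin 115 of 232 regions were static (49.6%, beside 39.8% in all windows) and 2 of 142 were lost by W2 (1.41%, beside 9.08%). Gains by W2 that were kept came to 13 of 158 (8.23%, beside 11.9%) and those after W2 to 12 of 195 (6.15%, beside 8.63%). With SOX9+AFOS against WT-SOX9, 25 of 144 regions closed (17.4%, beside 29.2%) and 30 of 149 opened (20.1%, beside 25.8%). Against SOX9+ARID1a, 36 of 150 closed (24%, beside 31.2%) and 35 of 149 opened (23.5%, beside 23.4%). With AFOS against noDOX, 16 of 147 closed (10.9%, beside 16.7%) and 35 of 166 opened (21.1%, beside 24.5%). Among those with a promoter peak in both lists, none moved by 2-fold at W2 or W6 against D0, or with SOX9+AFOS against WT-SOX9. Over all genes, 1.97% were at least 2-fold higher and 2.54% lower at W2, and 3.03% and 3.37% at W6. With SOX9+AFOS these shares were 3.58% and 11.1%, so that few such promoters would be found in a list of this size. With AFOS against noDOX, 1 was at least 2-fold higher and 2 at least 2-fold lower, beside 2.17% and 15.7% of all genes. The higher one was the MAP kinase gene Mapk3 (4.42 to 8.95). Mapk8, which encodes the kinase JNK1, was among the lower ones (23.5 to 9.81). The Jdp2 promoter scored 14.7 in noDOX and 7.35 in AFOS, and 14.1 in WT-SOX9 and 25.8 in SOX9+AFOS.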

How the data were processed

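ATAC-seq peak lists of 12 groups were used, each made by the authors from 2 merged replicates. The study's methods state that reads were aligned by the authors to GRCm38/mm10, that they merged replicate alignments, called peaks with MACS2 while keeping duplicates, and removed peaks under a normalized score of 3. The submitters' processing notes name Bowtie2 2.2.9, Picard 2.3.0, SAMtools 1.9, MACS2 2.1.1 and deepTools 2.5.4. The deposited score is treated as scaled to an equal sum in each list, which is an inference from the totals. The skin files also gave the MACS2 ratio (fold enrichment over background), the -log10 q-value and a summit position, as deposited by the authors, of which only the -log10 q-value was used, as a filter. Read depth is not given, so no precision could be had from it.

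Samples were grouped by their titles. Peaks overlapping by at least 1 bp were joined into regions separately for the 5 skin and 7 culture lists, and windows and starts came from GENCODE M21. A region opened or closed when its presence differed between 2 lists. Shares carry 95% Wilson intervals. Score ratios of at least 2-fold were counted. Sequences came from GRCm38.p6, and promoters from RefSeq. Python 3.11.15, numpy 2.4.6, matplotlib 3.10.9 and samtools 1.23.1 were used, and the code was tested on simulated data. The 9 genes were all named, with the 3 highest-scoring regions away from promoters in each class. The members, the lists, the markers and the classes were chosen with earlier results of these data known. The values of 1 gene of the pathway list are not reported here. Alternatives were windows of 20 kb, promoters of 1 kb or at any transcript start, a score of at least 5, lists cut to equal length, a common -log10 q-value, a larger minimum overlap, the union of all lists, the nearest start, centred scores, and absent promoters set to 3.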

Additional observations from a re-analysis of the deposited data

Results flagged for a closer look

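The AFOS comparison without SOX9 (AFOS over noDOX) and the one with it (SOX9+AFOS over WT-SOX9) moved in opposite directions by at least 1.25-fold each at 13 places, found among the promoters and all regions of the AP1 subunit windows. With 1 list per group the difference was not tested at any of them, and the share of such regions was near that of all windows. Differences are given on the log2 scale, with SOX9 minus without. The Fosl2 promoter stood at 0.630-fold without SOX9 and 1.43-fold with it, a difference of 1.18. Fosl2 regions differed by 2.16 at +47.5 kb (0.444-fold and 1.99-fold) and 2.60 at -14.2 kb (0.486-fold and 2.95-fold). The largest difference was 3.16 at the Junb region at -38.0 kb (0.277-fold and 2.47-fold), and Junb regions differed by 1.47 at -1.4 kb and 1.40 at +25.7 kb. Jund regions differed by 2.85 at -31.8 kb, 1.66 at -49.6 kb and -0.85 at -16.4 kb. The Fos region at +45.9 kb differed by -1.54 (1.71-fold and 0.589-fold) and the Fosl1 region at -17.5 kb by -2.62 (1.26-fold and 0.205-fold). Fosb regions differed by -1.13 at +8.7 kb and -0.97 at -17.2 kb. Of these places, the Fos and Fosl1 regions hold an AP1 match in their centre.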

How the results depend on the processing

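The 14 shares and medians were recomputed in 80 alternatives, of which 70 left them within the main interval or within 1.25-fold with the same sign. With windows of 20 kb, the share gained by W2 and kept was 1.61%, that gained after W2 1.49%, and the share opened in SOX9+AFOS 18.9% against both WT-SOX9 and SOX9+ARID1a. With a common -log10 q-value of at least 14.5, losses by W2 came to 17.3% and gains by W2 to 0%. Counting only regions whose nearest start was a member gave 1.75% for gains by W2. Lists cut to the length of the shortest gave 36.6% opened in SOX9+AFOS against SOX9+ARID1a. Promoters of 1 kb gave median log2 ratios of -0.10 for W2 over D0, a change of sign, and -0.12 for SOX9+AFOS over WT-SOX9. The causes were not tested. The static share and the shares closed in the AFOS comparisons kept within their intervals in every alternative run on them. No paired analysis was possible because the replicates were merged before peak calling, and no replicate could be left out. The unknown depth limits every absence of a peak, since a weak region under a score of 3 is not listed.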
